A study of Homo sapiens with 4 samples.

Results

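The ZBTB genes encode transcription factors that pair a BTB domain, through which they bind each other and their corepressors, with a row of zinc fingers that read DNA. Many of them recruit the NCoR, Sin3 or NuRD corepressors and their histone deacetylases, and some hand their partners to the CUL3 ubiquitin ligase. Members are known for lineage choice in blood cells, for reading methylated DNA, for control of the cell cycle and for metabolism. The open chromatin around these genes was compared in 786-O cells, a line of human renal carcinoma, in the presence and absence of DEK, a histone chaperone that associates with chromatin.

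The genes were chosen by symbol, as protein-coding genes on chromosomes 1 to 22 whose symbol is ZBTB followed by a number. This gave 41 of 19126 protein-coding genes, or of 19974 with chromosome X, and all 41 were measured. They lie on 14 chromosomes, with 10 on chromosome 1. ZBTB33, which encodes Kaiso, lies on X and is outside the rule. ZBTB8OS meets the rule by its symbol but encodes archease, a cofactor of tRNA ligation and no zinc finger protein. The list was selected on peak calls and ranks of these same libraries, so those values are given as a description, without a test.

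The groups were DEK KO and WT control, with 2 libraries each. DEK KO cells came from a Cas9-expressing clone made with LentiCas9-Blast virus, then infected with LentiGuide-Puro virus carrying DEK guide RNAs and sorted as single cells. WT control cells carried the negative control with a wild-type genotype, and the label of the library names Cas9. All 4 libraries thus derive from 786-O cells, and nothing in the labels states if a group's 2 libraries are separate clones or cultures, so their spread may be technical. The protocol text describes RNA isolation and a stranded mRNA kit, although the series and the molecule are given as ATAC-seq and genomic DNA. In ATAC-seq a transposase inserts adapters into open DNA, and each library is represented by the peak list its authors called.

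The lists held 102760 and 99508 peaks in DEK KO replicates 1 and 2, against 89563 and 90409 in WT control replicates 1 and 2, on chromosomes 1 to 22 and X. Read depth is unknown, since the lists give no counts. Each peak was placed by its percentile, from 0 for the weakest to 100 for the strongest, of −log10 p within its own list. Percentiles still depend on list length. Over all regions called in all 4 lists, the median of DEK KO minus WT control was 1.35, and -1.03 with lists cut to equal length. Named genes that are not members have percentiles from uncut lists only. Over all protein-coding genes 60.4% had a start region called in all 4 lists. Renal markers had one at 8 of 10 genes, including PAX8 and PAX2, while CA9 and CUBN had none. Markers of other cell types had one at 1 of 10 genes, COL1A1, and 7 of the 10, among them PTPRC, CD3E, ALB and CDH5, had no start region in any list. PDGFRB had a WT-only and RBFOX3 a KO-only start region. Peaks give no check of the DEK knockout itself.

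The start sequences of 8 genes are shown because the comparisons turn on them. ZBTB3 had the highest ranked start region, ZBTB1 and ZBTB25 shared the one with the largest percentile difference among the start regions taken, 1 per gene, and ZBTB12 and ZBTB21 also ranked higher in both DEK KO lists. ZBTB7A ranked lower in both, ZBTB39 had no region shared by the 4 lists, and ZBTB46 had no region within 1 kb of its listed start. Each sequence runs 5′ to 3′ along the gene, from 250 bases before to 50 after a listed start, from RefSeq on GRCh38.p14. Capitals mark matches on either strand to the motifs searched.
ZBTB3: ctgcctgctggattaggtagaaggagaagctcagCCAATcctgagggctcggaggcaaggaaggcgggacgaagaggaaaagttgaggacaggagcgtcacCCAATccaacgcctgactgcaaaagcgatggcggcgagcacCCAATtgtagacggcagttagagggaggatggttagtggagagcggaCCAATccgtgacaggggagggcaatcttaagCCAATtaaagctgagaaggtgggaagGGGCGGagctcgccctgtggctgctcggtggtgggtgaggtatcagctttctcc
ZBTB1: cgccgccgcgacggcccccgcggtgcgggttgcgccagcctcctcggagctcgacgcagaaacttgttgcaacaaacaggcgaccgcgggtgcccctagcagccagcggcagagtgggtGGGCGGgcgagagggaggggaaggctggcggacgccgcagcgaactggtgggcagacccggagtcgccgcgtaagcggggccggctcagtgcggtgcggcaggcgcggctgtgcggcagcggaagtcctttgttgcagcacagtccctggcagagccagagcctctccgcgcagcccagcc
ZBTB25: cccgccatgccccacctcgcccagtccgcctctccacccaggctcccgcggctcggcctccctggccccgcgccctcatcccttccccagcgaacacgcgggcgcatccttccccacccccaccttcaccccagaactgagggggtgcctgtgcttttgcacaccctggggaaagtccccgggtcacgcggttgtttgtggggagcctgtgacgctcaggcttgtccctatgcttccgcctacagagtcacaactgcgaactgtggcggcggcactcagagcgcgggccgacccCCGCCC
ZBTB12: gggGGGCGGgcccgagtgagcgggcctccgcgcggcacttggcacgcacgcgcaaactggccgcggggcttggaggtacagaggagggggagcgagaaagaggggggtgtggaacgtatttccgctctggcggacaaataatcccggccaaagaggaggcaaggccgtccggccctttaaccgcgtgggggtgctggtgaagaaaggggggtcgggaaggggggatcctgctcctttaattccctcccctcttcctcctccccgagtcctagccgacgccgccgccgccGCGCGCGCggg
ZBTB21: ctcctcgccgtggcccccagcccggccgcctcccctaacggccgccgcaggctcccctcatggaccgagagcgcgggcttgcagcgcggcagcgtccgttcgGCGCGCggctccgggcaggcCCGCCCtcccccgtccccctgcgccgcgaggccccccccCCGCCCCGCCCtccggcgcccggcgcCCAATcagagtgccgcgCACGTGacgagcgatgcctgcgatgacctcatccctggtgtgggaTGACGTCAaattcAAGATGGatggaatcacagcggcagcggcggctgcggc
ZBTB7A: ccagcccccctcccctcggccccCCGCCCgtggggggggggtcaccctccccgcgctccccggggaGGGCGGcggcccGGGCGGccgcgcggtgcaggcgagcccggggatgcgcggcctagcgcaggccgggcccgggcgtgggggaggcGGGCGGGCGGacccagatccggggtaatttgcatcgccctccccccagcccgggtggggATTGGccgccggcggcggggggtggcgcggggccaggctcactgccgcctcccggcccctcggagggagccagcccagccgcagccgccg
ZBTB39: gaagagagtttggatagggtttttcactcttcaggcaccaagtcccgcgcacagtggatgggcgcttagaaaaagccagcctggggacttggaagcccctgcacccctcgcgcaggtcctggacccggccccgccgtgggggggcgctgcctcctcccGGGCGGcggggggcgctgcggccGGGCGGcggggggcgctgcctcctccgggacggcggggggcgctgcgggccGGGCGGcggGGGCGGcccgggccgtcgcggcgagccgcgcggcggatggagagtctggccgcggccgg
ZBTB46: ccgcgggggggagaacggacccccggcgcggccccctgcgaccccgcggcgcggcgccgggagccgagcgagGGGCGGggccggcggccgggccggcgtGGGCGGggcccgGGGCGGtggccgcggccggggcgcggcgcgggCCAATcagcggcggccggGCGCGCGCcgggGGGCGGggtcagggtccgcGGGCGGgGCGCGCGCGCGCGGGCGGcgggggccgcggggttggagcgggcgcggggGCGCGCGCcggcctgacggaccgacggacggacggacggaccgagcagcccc

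The printed windows lie at chr11:62754111-62754410 for ZBTB3, chr14:64504520-64504819 for ZBTB1, chr14:64503915-64504214 for ZBTB25, chr6:31902037-31902336 for ZBTB12, chr21:42010311-42010610 for ZBTB21, chr19:4065480-4065779 for ZBTB7A, chr12:57006497-57006796 for ZBTB39 and chr20:63831215-63831514 for ZBTB46. The strand is plus for ZBTB1 and minus for the others. ZBTB1 has 2 listed starts, ZBTB25 has 4 and ZBTB7A has 2, of which 1 each is shown. The 10 motifs searched were the SP and KLF box (GGGCGG), the ETS site (CCGGAAG), the NFY box (CCAAT), the NRF1 core (GCATGCG), the YY1 core (AAGATGG), the ATF and CREB core (TGACGTCA), the AP-1 site (TGANTCA), the E-box of MYC (CACGTG), the ZBTB14 core (GCGCGC) and the Kaiso site (TCCTGCNA). No motif contains another, but matches may overlap in a sequence.

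The ZBTB3 window holds 5 NFY boxes and 1 SP and KLF box. The ZBTB21 window holds matches to 6 of the motifs, among them 1 ATF and CREB core and 1 E-box. ZBTB39 has 4 SP and KLF boxes in a window of 77.0% GC. ZBTB46, the richest in GC of the members' windows at 89.7%, has 66 CpG dinucleotides and 8 overlapping or separate ZBTB14 cores. ZBTB7A has 5 SP and KLF boxes and 83.7% GC. A match says only that these letters occur in the window.

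Start sequences were listed for 35 of the 41 genes, with 69 windows. The members' windows had a median GC content of 62.3%, against 62.7% over 21156 windows of all protein-coding genes, and a median of 21 CpG in both sets. The SP and KLF box was in 60.9% of the members' windows and 56.6% of all windows. The NFY box was in 40.6% and 34.4%, the ETS site in 18.8% and 12.9%, and the E-box in 13.0% and 8.25%. The ATF and CREB core was in 5.80% and 2.31%, the AP-1 site in 8.70% and 6.08%, and the Kaiso site in 7.25% and 4.54%. For these 3 motifs the members' shares are only 4, 6 and 5 of the 69 windows. A gene with several starts gives several windows, and ZBTB38 has 10 listed starts and ZBTB20 has 8. The ZBTB14 core was in 21.7% and 24.6%, the YY1 core in 5.80% and 5.96%, and the NRF1 core in 2.90% and 4.54%. ZBTB17, ZBTB40, ZBTB41, ZBTB10, ZBTB6 and ZBTB16 have no listed start here, so either end of their span served as the start.

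Start regions lay within 1 kb of a listed start, or of either end of the span where no start was listed. They were called in all 4 lists at 33 of the 41 genes (80.5%), against 60.4% of all protein-coding genes. Among the 35 members with listed starts the number was 29 (82.9%). The regions taken for ZBTB17, ZBTB41, ZBTB10 and ZBTB6 lay at a span end, with no strand listed. Where a gene had several start regions, the one called in most lists was taken and, among those, the one with the highest mean percentile. No start region was KO-only, which means called in each DEK KO list but in no WT control list. Over all protein-coding genes it was KO-only at 146 of 19126. The mean percentile over the 4 lists had a median of 85.8 among these 33, against 83.3 over the 11547 start regions of all genes called in all 4 lists. It lay above the 75th percentile for 24 members, above the 90th for 12 and below the 50th for 4.

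The strongest start regions belonged to ZBTB3, ZBTB8OS, ZBTB38 and ZBTB26. The ZBTB3 region (chromosome 11, 62753653 to 62754593) stood at percentiles 99.6 and 98.4 in DEK KO replicates 1 and 2, against 98.8 and 99.3 in WT control replicates 1 and 2. The groups overlapped. ZBTB8OS stood at 98.4 and 97.9 in DEK KO, against 99.1 and 98.4 in WT control, in a region that also covers the start of RBBP4, a histone-binding subunit of NuRD and of other chromatin complexes. ZBTB38, whose protein binds methylated DNA, stood at 97.7 and 97.6 in DEK KO, against 95.6 and 97.2 in WT control. ZBTB26 stood at 93.8 and 98.3 in DEK KO, against 97.0 and 97.7 in WT control, with DEK KO replicate 1 the lowest of the 4.

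The weakest start regions among the 33 were those of ZBTB7A, ZBTB44, ZBTB8A and ZBTB12. ZBTB7A encodes LRF, a repressor of fetal globin genes and a regulator of blood lineages. Its start region (chromosome 19, 4063919 to 4064882) stood at percentiles 14.0 and 8.51 in DEK KO replicates 1 and 2, against 23.1 and 23.8 in WT control replicates 1 and 2. Both DEK KO values were below both WT control values, and the region ended short of the printed window. ZBTB8A stood at 53.6 and 31.4 in DEK KO, against 45.0 and 46.1 in WT control, so that the DEK KO replicates lay on either side.

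**Figure D1:**
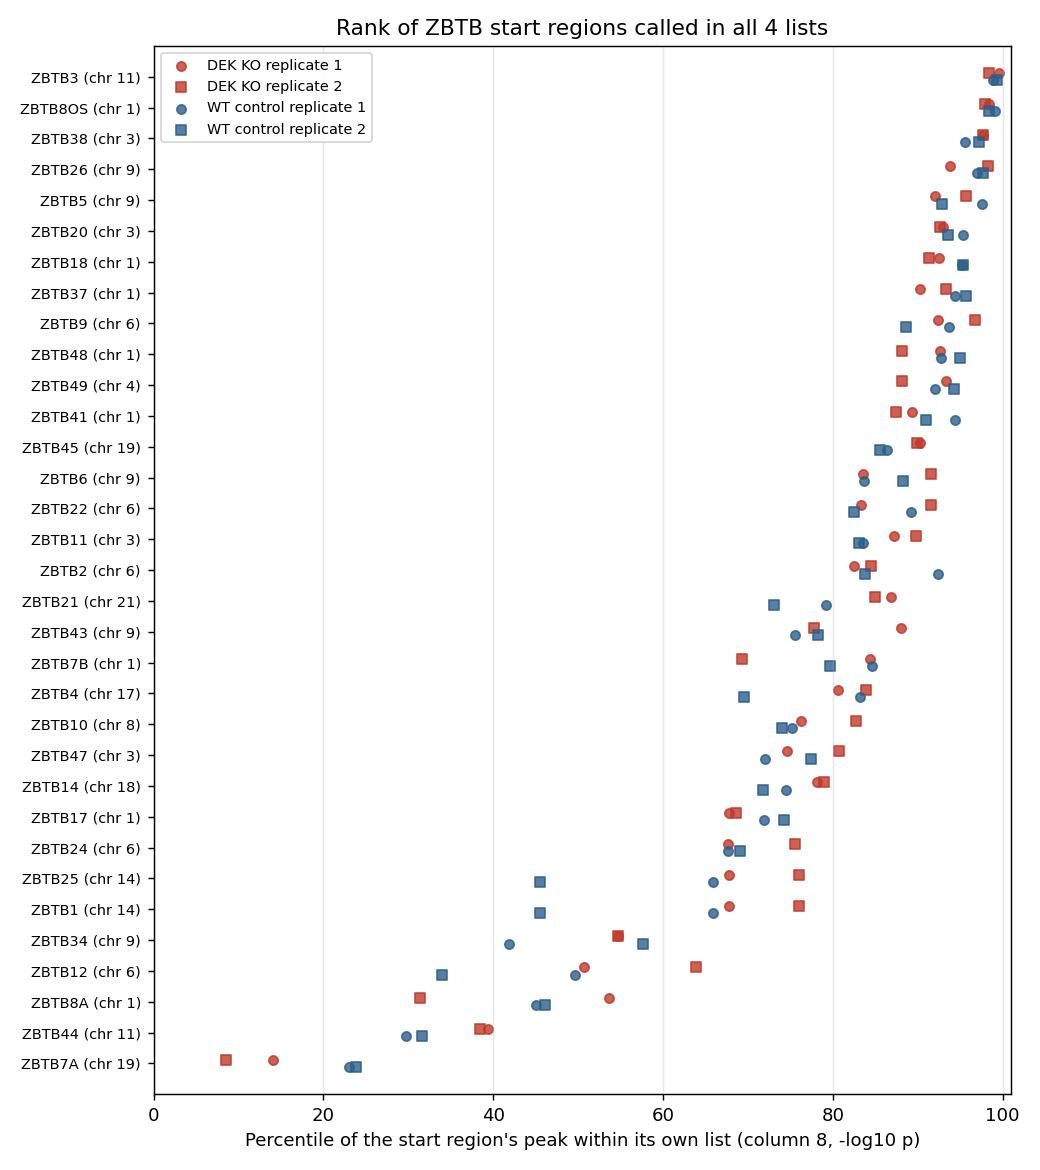
Percentile of the start region within each list (x axis, 0 to 100) for the 33 ZBTB genes with a start region in all 4 lists, ordered by the mean of the lists. Red marks are DEK KO and blue marks WT control, circles replicate 1 and squares replicate 2. Most genes sit above the 75th percentile, with ZBTB7A at the bottom and its DEK KO marks left of its WT control marks.

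The start region shared by ZBTB1 and ZBTB25 counts here for each gene. Of the 33 genes, 10 (30.3%) had both DEK KO percentiles above both WT control percentiles, against 23.3% of the start regions of all genes. Another 7 (21.2%) had both DEK KO percentiles below both WT control percentiles, against 16.0% of all genes, and 16 overlapped, with differences from -5.32 at ZBTB7B to 6.01 at ZBTB43. A difference here is the mean of DEK KO minus the mean of WT control, and it had a median of 1.63 percentile points over the members and 0.437 over all genes. The replicates of a gene differed with a median SD of 2.55 points in DEK KO and 1.69 in WT control (n = 2 each). These shares depended on list length. With every list cut to its 89563 highest peaks, 5 of 32 members ranked higher in DEK KO and 8 lower, with a median difference of -0.11, and over all genes the shares were 15.0% and 24.2% with a median of -0.84.

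The 10 genes that ranked higher in both DEK KO lists were ZBTB1, ZBTB25, ZBTB12, ZBTB21, ZBTB44, ZBTB14, ZBTB11, ZBTB10, ZBTB45 and ZBTB38. ZBTB1, needed for lymphocyte development in mice, and ZBTB25 start in opposite directions from the same region (chromosome 14, 64503362 to 64505541). It stood at percentiles 67.7 and 76.0 in DEK KO replicates 1 and 2, against 65.9 and 45.5 in WT control replicates 1 and 2, a difference of 16.2. WT control replicate 2 was the lowest by far, the difference was 5.95 without it, and with lists of equal length the groups overlapped.

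ZBTB12 stood at percentiles 50.7 and 63.9 in DEK KO, against 49.6 and 34.0 in WT control, a difference of 15.5 that also rested on WT control replicate 2, since it was 7.74 without that library. With lists of equal length its groups overlapped too. ZBTB21, a factor that partners with ZBTB14 and others, stood at 86.9 and 85.0 in DEK KO, against 79.2 and 73.1 in WT control, a difference of 9.82. Its groups stayed apart with lists of equal length, where the difference was 8.14. ZBTB44 stood at 39.4 and 38.4 in DEK KO, against 29.8 and 31.6 in WT control, but at equal length the difference was 0.62 and the groups overlapped.

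ZBTB14, a factor that binds GC-rich motifs, stood at percentiles 78.1 and 79.0 in DEK KO, against 74.5 and 71.8 in WT control. ZBTB11, whose protein is needed for neutrophil development in zebrafish and for mitochondrial genes, stood at 87.2 and 89.8 in DEK KO, against 83.5 and 83.0 in WT control. Both kept DEK KO above WT control at equal length, where the difference was 2.77 for ZBTB14 and 3.79 for ZBTB11. ZBTB10, a repressor that competes at SP1 sites, and ZBTB45 had differences of 4.89 and 4.13. Without DEK KO replicate 2 the ZBTB10 difference was 1.65. At equal length ZBTB10 overlapped and ZBTB45 did not. ZBTB38 had a difference of 1.23 at the region taken, which was -1.19 when peaks were ranked by fold, with overlap between the genotypes.

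At ZBTB38 and ZBTB20 another listed start had a larger difference than the region taken. A second start region of ZBTB38 (chromosome 3, 141323684 to 141324665) stood at percentiles 64.9 and 61.0 in DEK KO replicates 1 and 2, against 85.1 and 89.3 in WT control replicates 1 and 2. Both DEK KO values lay below both WT control values, a difference of -24.3. Its folds were 5.70 and 6.86 in DEK KO, against 7.68 and 8.14 in WT control. ZBTB20, in the group described next, also had a weaker start region (chromosome 3, 114758294 to 114759667) at percentiles 38.3 and 29.9 in DEK KO, against 54.0 and 53.6 in WT control, a difference of -19.7.

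The 7 genes that ranked lower in both DEK KO lists were ZBTB7A, with a difference of -12.2, and ZBTB17, ZBTB41, ZBTB48, ZBTB18, ZBTB37 and ZBTB20, whose differences ran from -4.84 to -1.67. ZBTB17 encodes MIZ-1, the partner through which MYC represses genes. Its region (chromosome 1, 15975062 to 15976566) stood at percentiles 67.8 and 68.6 in DEK KO, against 71.9 and 74.3 in WT control. ZBTB48 encodes TZAP, which binds telomere repeats, and stood at 92.7 and 88.1 in DEK KO, against 92.7 and 94.99 in WT control. Its replicate 1 values were nearly equal in the 2 genotypes.

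ZBTB18, a repressor required for neuron differentiation in the cortex, stood at percentiles 92.5 and 91.3 in DEK KO, against 95.2 and 95.3 in WT control. ZBTB20, a regulator of liver and hippocampal genes, stood at 93.0 and 92.6 in DEK KO, against 95.4 and 93.6 in WT control. ZBTB41 and ZBTB37 stood at 89.3 and 87.4, and at 90.3 and 93.3, in DEK KO, against 94.4 and 90.9, and 94.4 and 95.6, in WT control. All 7 except ZBTB7A, which lost its call in all 4 lists at equal length, kept their order there. Ranked by fold, the difference changed sign for ZBTB20 (1.12), ZBTB37 (0.20), ZBTB48 (1.60) and ZBTB41 (2.71). ZBTB17 and ZBTB7A kept DEK KO below WT control in that ranking, and ZBTB18 overlapped.

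Chromosome 1 held 5 of these 7 genes: ZBTB17, ZBTB41, ZBTB48, ZBTB18 and ZBTB37. Of the 8 member starts on chromosome 1 that were called in all 4 lists, 0 ranked higher in DEK KO and 5 lower, with a median difference of -3.39. All genes of chromosome 1 leaned the same way, with 11.1% higher, 33.5% lower and a median of -1.67. On the other chromosomes 10 of 25 members ranked higher in DEK KO and 2 lower, with a median of 3.43. All genes there gave 24.7% and 13.9% and a median of 0.67. The 10 count the region of ZBTB1 and ZBTB25 for each gene, and they depended on list length. At equal length ZBTB1, ZBTB25, ZBTB12, ZBTB44 and ZBTB10 overlapped. ZBTB2, and ZBTB8OS on chromosome 1, then ranked lower in both DEK KO lists. The part of the chromosome in the members' values was not tested.

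**Figure D2:**
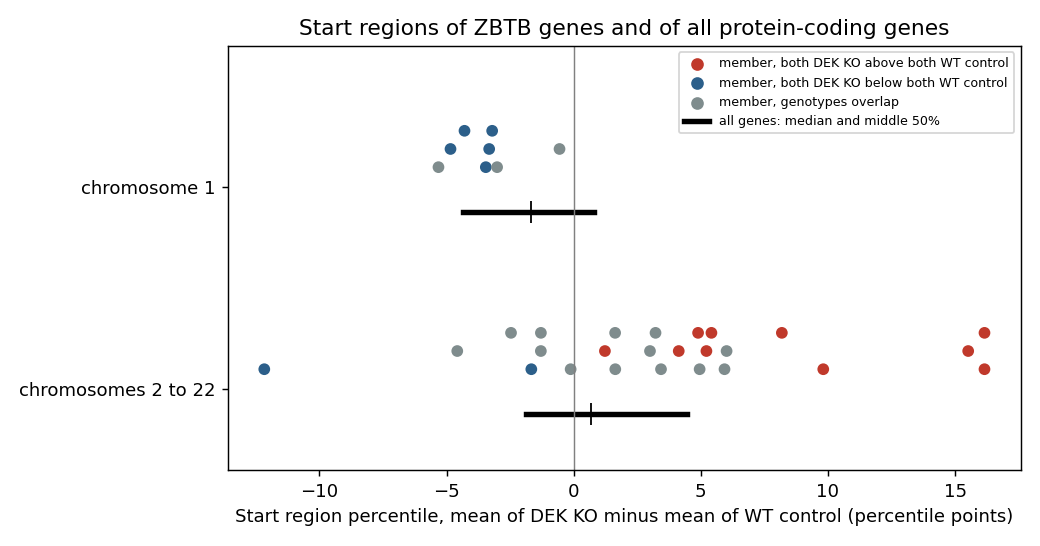
Percentile difference at the start region, mean of DEK KO minus mean of WT control (x axis, percentile points), for members on chromosome 1 and on chromosomes 2 to 22. Each dot is 1 ZBTB gene, red where both DEK KO values are above both WT control values, blue where both are below and grey where they overlap, and dots are spread vertically for legibility. Black bars give the middle 50% and tick the median of all protein-coding genes. All 8 dots of chromosome 1 lie below 0.

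Starts without a region in all 4 lists belonged to 8 genes. ZBTB16 (PLZF, a factor of innate-like lymphocytes and germline stem cells), ZBTB32 (a factor of activated lymphocytes), ZBTB46 (a marker of conventional dendritic cells), ZBTB42 and ZBTB8B had no start region in any list. That is 12.2% of the members, against 31.8% of all genes. ZBTB7C had a weak region at a listed start in DEK KO replicate 2 alone, at percentile 2.52. ZBTB39 had one in DEK KO replicate 1 at percentile 24.8 and in WT control replicate 2 at 16.8.

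The window of ZBTB39, the gene span with 50 kb on each side, was the only one among the 41 with no region called in all 4 lists. It held 7 regions, of which the strongest (chromosome 12, 56985776 to 56986143) stood at percentile 72.8 in DEK KO replicate 2, against 78.2 and 63.1 in WT control replicates 1 and 2. It was not called in DEK KO replicate 1. The windows of the genes without a start region did hold shared regions nearby. At ZBTB46 a region 0.963 kb outside the span and 3.59 kb from the listed start (chromosome 20, 63834858 to 63835442) stood at 97.4 and 96.5 in DEK KO, against 95.2 and 95.6 in WT control. It lies within 1 kb of the upstream end of the span. By the rule for genes without a listed start, it would have been a start region in all 4 lists. At ZBTB32 a shared region lay 1.48 kb from a listed start, at 93.5 and 90.5 in DEK KO, against 91.8 and 87.5 in WT control.

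ZBTB40 was the only member with a one-genotype region at its start. The region at its end of lower coordinate (chromosome 1, 22428689 to 22429193) was WT-only, which means called in each WT control list but in no DEK KO list. It had folds of 4.43 and 4.72 and percentiles of 17.1 and 26.1 in WT control replicates 1 and 2. Over all protein-coding genes the start region was WT-only at 86 of 19126. The authors' fold is that of a peak over its background within its own list. The only region of the ZBTB40 window in all 4 lists (22451676 to 22452584), 22.8 kb inside the gene, stood at 79.2 and 79.6 in DEK KO, against 84.5 and 89.1 in WT control.

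Across all 41 windows, 6.28 Mb in all, the 4 lists merged into 458 regions, of 134897 on chromosomes 1 to 22. All 4 lists called 225 of them (49.1%, against 45.2% of all regions). KO-only regions numbered 15 (3.28%, against 6.24% of all regions) and WT-only regions 14 (3.06%, against 2.56%). KO-only regions made up 51.7% of the regions found in 1 genotype, against 70.9% over all regions and 69.4% in the windows of all protein-coding genes. Without DEK KO replicate 1 the share was 71.7%, against 72.0% over all regions. The library counts in the windows were 330 and 350 peaks in DEK KO, against 308 and 323 in WT control, or 340 ± 14.1 and 315.5 ± 10.6 (SD, n = 2 each), a ratio of 1.08 where the whole lists had 1.12.

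With lists of equal length the windows held 12 KO-only and 16 WT-only regions, a share of 42.9%, against 56.6% over all regions. Without members on chromosome 1 they held 12 and 10, a share of 54.5%, against 72.1% on chromosomes 2 to 22. A class asked of 3 lists is easier to enter than one asked of 4. Leaving out DEK KO replicate 1 gave 66 KO-only and 26 WT-only regions, and leaving out DEK KO replicate 2 gave 49 and 25. Leaving out WT control replicate 1 gave 29 and 42, and leaving out WT control replicate 2 gave 27 and 29. The KO-only share in the windows was 66.2% without DEK KO replicate 2, against 78.6%. It was 40.8% without WT control replicate 1, against 51.9% over all regions, and 48.2% without WT control replicate 2, against 54.5%.

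By gene, 12 members had a KO-only region in the window (41.2% of all genes did) and 12 had a WT-only region (20.1% of all genes did), 5 had both and 22 had neither. Windows overlapped for ZBTB8B and ZBTB8A, ZBTB8A and ZBTB8OS, ZBTB25 and ZBTB1, ZBTB6 and ZBTB26, and ZBTB43 and ZBTB34, so 1 WT-only region inside ZBTB25 counts for ZBTB1 too. No one-genotype region reached the 50th percentile in both of its lists. The lower percentile ran from 4.18 to 44.0 in KO-only and from 0.927 to 44.7 in WT-only regions. The median lower percentile was 21.6 in KO-only and 13.8 in WT-only regions, against 21.6 and 15.8 over all such regions. At a member's start lay 1 of the 29, and 12 lay inside members' spans. At the start of any gene lay 1 KO-only and 1 WT-only region (6.67% and 7.14%), against 2.88% and 4.78% over all such regions.

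**Figure D3:**
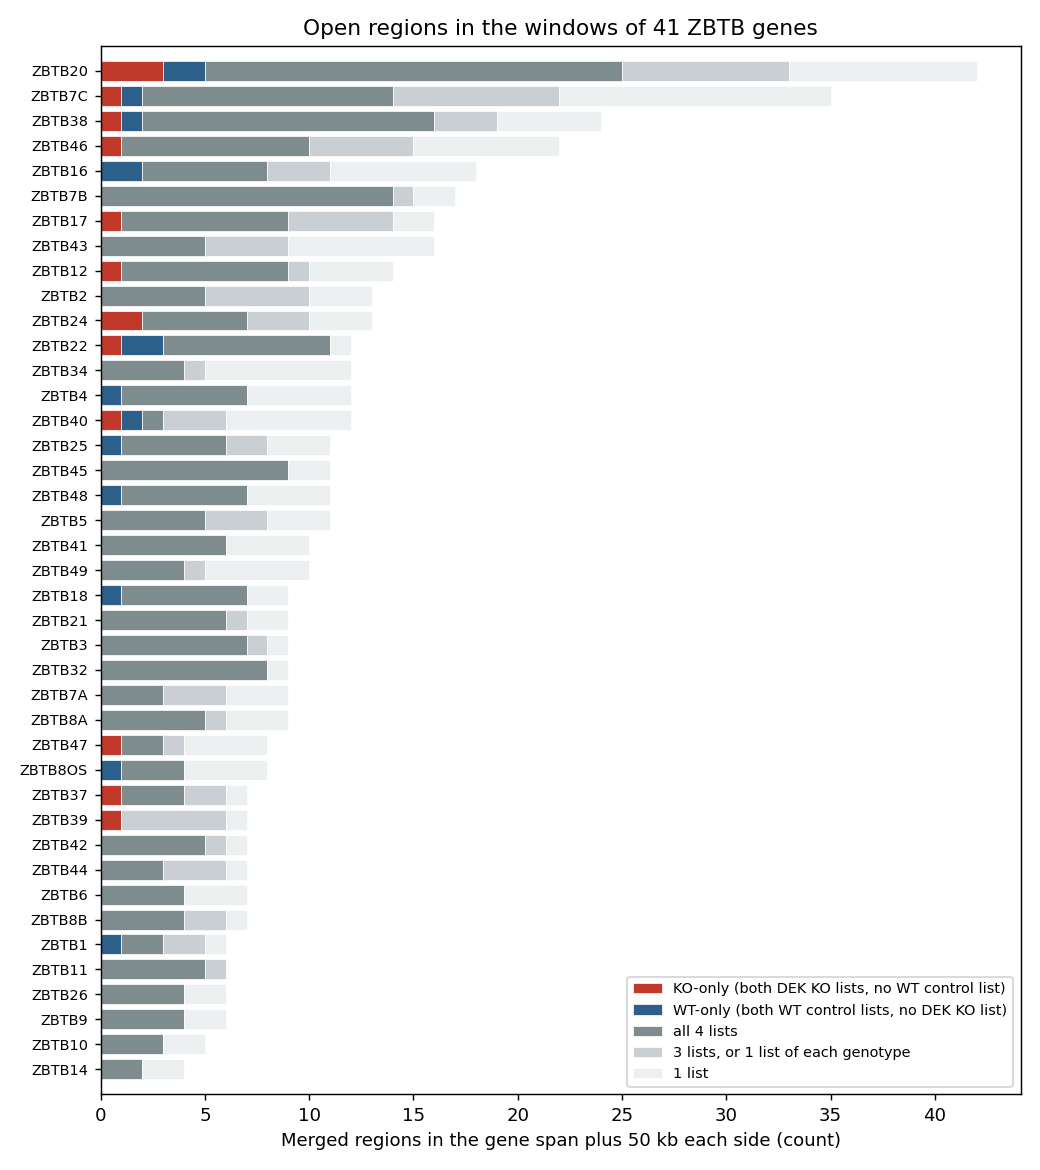
Number of merged regions (x axis) in the window of each of the 41 ZBTB genes, the gene span plus 50 kb each side, by the lists that called them. Red is KO-only, blue is WT-only and greys are regions of both genotypes or of 1 list. ZBTB20 has the most regions, with 3 KO-only and 2 WT-only of 42, and neighbouring genes share regions.

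The highest ranked KO-only regions lay at ZBTB17, ZBTB37, ZBTB47, ZBTB40, ZBTB24 and ZBTB12, all outside the gene spans. The ZBTB17 region (chromosome 1, 15939140 to 15939980), 1.89 kb outside the span, had percentiles of 44.0 and 48.1 in DEK KO replicates 1 and 2, with folds of 4.52 and 5.10. That at ZBTB37 (173852740 to 173853531) had percentiles of 49.2 and 43.2. ZBTB24, whose loss causes an immunodeficiency with centromere instability, had 2 KO-only regions and no WT-only region. The stronger one (chromosome 6, 109513679 to 109514090) had percentiles of 34.5 and 49.7, the other 21.6 and 18.8. The region in the ZBTB22 window at the start of B3GALT4 was the only KO-only one at another gene's start, at percentiles of 5.43 and 4.18.

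The highest ranked WT-only regions lay at ZBTB8OS, ZBTB25, ZBTB22, ZBTB40 and ZBTB20. The ZBTB8OS region (chromosome 1, 32666552 to 32667213) had folds of 7.60 and 6.08 and percentiles of 50.9 and 44.7 in WT control replicates 1 and 2. The region inside ZBTB25 (chromosome 14, 64501701 to 64502159), 1.68 kb from a listed start, had percentiles of 41.3 and 44.9. In the ZBTB22 window lay 2 WT-only regions and 1 KO-only region. ZBTB16 had 2 WT-only regions inside its span, 114209919 to 114210273 and 114081649 to 114082212 on chromosome 11, at percentiles of 29.7 and 14.4 and of 20.8 and 2.38. ZBTB38 had a KO-only region at percentiles of 10.4 and 7.76 in DEK KO and a WT-only region at 14.8 and 11.8 in WT control, both inside the gene. ZBTB46 had a KO-only region inside the gene at 45.7 and 13.3. ZBTB7C had one inside at 21.6 and 36.4, and a WT-only region in its flank at 0.927 and 35.2.

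Among one-genotype regions, those nearest to the window's limit were a KO-only region at ZBTB40, 48.1 kb outside its span, and one at ZBTB12 at 46.7 kb, both inside the limit. Just outside it lay a WT-only region 52.8 kb from ZBTB7C and a KO-only region 54.7 kb from ZBTB9, at lower percentiles of 9.35 and 13.8.

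Regions called in all 4 lists allow ranks to be compared away from the starts. Of the 225 in the windows, 55 (24.4%) ranked higher in both DEK KO lists, against 31.2% of all such regions, and 49 (21.8%) ranked lower in both, against 19.2%. At equal length the counts were 37 higher and 66 lower of 222, against 22.7% and 28.0% of all such regions. On chromosome 1 only 3 of 51 ranked higher and 19 lower, where all regions of chromosome 1 gave 21.5% and 28.1%. On the other chromosomes 52 of 174 ranked higher and 30 lower, against 32.3% and 18.2%.

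The largest percentile difference of a shared region in these windows lay inside ZBTB7C, a relative of ZBTB7A studied as a metabolic regulator and a proto-oncogene. The region was named after its values were seen, as were the other shared regions below. It lies on chromosome 18 at 48227169 to 48227759, 33.2 kb from the nearest listed start of the gene. It stood at percentiles 83.0 and 75.1 in DEK KO replicates 1 and 2, against 19.3 and 12.7 in WT control replicates 1 and 2. The folds were 8.94 and 9.01 in DEK KO, against 4.27 and 3.25 in WT control. The groups lay far apart, with a difference of 63.1 points, and remained so at equal length (60.8) and when ranked by fold (61.1).

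ZBTB7C has a span of 386 kb and its window held 35 regions, of which 12 were in all 4 lists. The region at 48264096 to 48264789 was called in both DEK KO lists at percentiles 71.9 and 71.2, in WT control replicate 1 at 31.1 and not in WT control replicate 2. A region 2.54 kb beyond the gene (48022597 to 48024132) stood at 53.2 and 69.2 in DEK KO, against 32.2 and 25.2 in WT control. The region at 48388716 to 48389341 went the other way, at 62.4 and 50.8 in DEK KO, against 74.8 and 68.3 in WT control. The region near the upstream end of the span (48409843 to 48410846) stood at 77.2 and 84.9 in DEK KO, against 66.7 and 77.7 in WT control, with overlap between the genotypes.

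**Figure D4:**
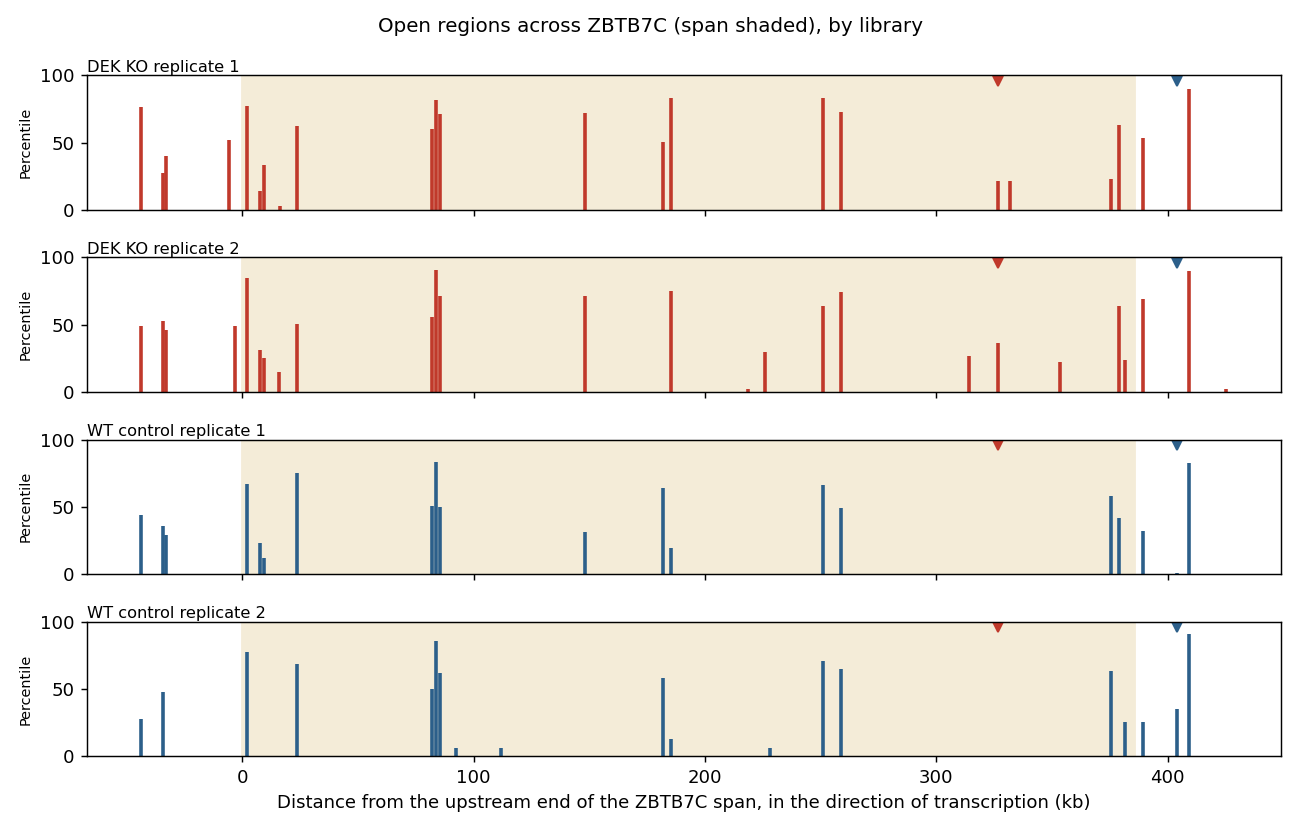
Regions across ZBTB7C in the 2 DEK KO libraries (top, red) and the 2 WT control libraries (bottom, blue). The x axis is the distance in kb from the upstream end of the gene span, along transcription, and bar height is the percentile within the list. The span is shaded, and triangles mark the KO-only (red) and WT-only (blue) region. The bar with the largest contrast stands at 83.0 and 75.1 in DEK KO and at 19.3 and 12.7 in WT control.

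ZBTB20 has the longest span of the members, 832.8 kb, and the most regions, 42, with 20 in all 4 lists. A region inside it (chromosome 3, 114411927 to 114412932), 28.3 kb from a listed start, stood at percentiles 72.1 and 69.2 in DEK KO, against 44.8 and 32.8 in WT control. Another inside the gene (114902321 to 114903659) stood at 93.2 and 70.8 in DEK KO, against 94.3 and 94.95 in WT control, with DEK KO replicate 2 low and replicate 1 close to the controls. Its 3 KO-only regions had lower percentiles of 16.8, 16.8 and 6.22. Its 2 WT-only regions had lower percentiles of 17.1 and 10.2, and the KO-only region at 114827474 to 114827808 is next to the WT-only region at 114829781 to 114830396.

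**Figure D5:**
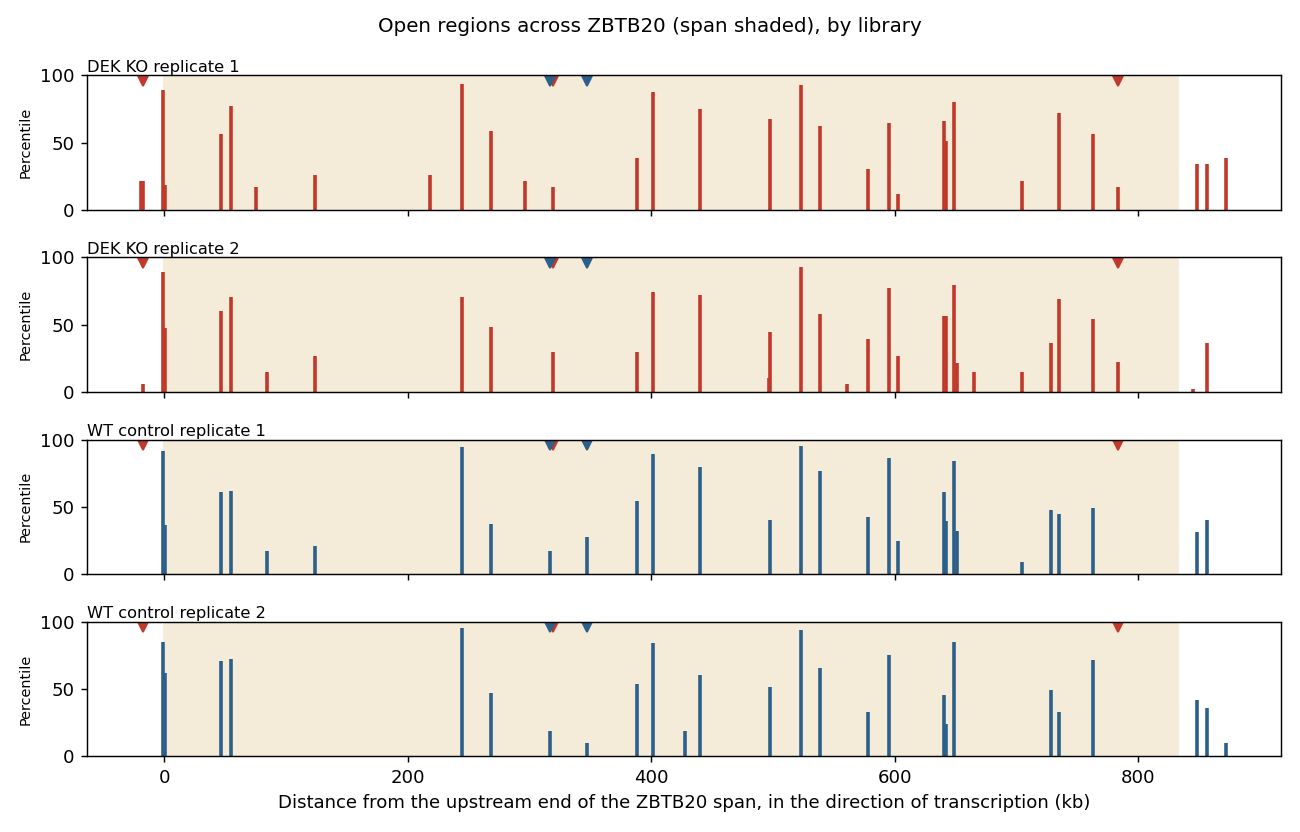
Regions across ZBTB20 in the 2 DEK KO libraries (top, red) and the 2 WT control libraries (bottom, blue). The x axis is the distance in kb from the upstream end of the gene span, along transcription, and bar height is the percentile within the list. The span is shaded, red triangles mark the 3 KO-only and blue triangles the 2 WT-only regions. The strongest bars are shared by all 4 libraries, and the one-genotype regions are short bars.

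In ZBTB49, a factor tied to control of the cell cycle, the start region shared with LYAR overlapped between genotypes, but a region inside the gene (chromosome 4, 4308747 to 4309738) did not. It stood at percentiles 92.8 and 92.3 in DEK KO, against 76.7 and 73.7 in WT control, with folds of 11.7 and 14.9 in DEK KO, against 10.1 and 9.67 in WT control. In the flank of ZBTB38 a region 48.5 kb outside the span (chromosome 3, 141274501 to 141275715) stood at 74.2 and 68.6 in DEK KO, against 22.1 and 27.4 in WT control. The flank of ZBTB7B, the master factor of helper T cells known as ThPOK, held a region (chromosome 1, 155038367 to 155039255) at 76.2 and 64.3 in DEK KO, against 37.8 and 37.9 in WT control. The flanks of ZBTB11 and ZBTB21 held regions with differences of 30.4 and 27.6. The regions in the flanks of ZBTB38, ZBTB7B, ZBTB11 and ZBTB21 kept their order at equal length and when ranked by fold.

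Among shared regions away from the members' listed starts, the 8 with the largest differences below 0 lay outside the members' spans. The largest was at ZBTB41 (chromosome 1, 197144917 to 197145677), 0.992 kb from the start of ASPM, a spindle protein gene, with percentiles of 15.4 and 25.4 in DEK KO, against 44.3 and 60.7 in WT control. The region over the start of TMEM223 in the ZBTB3 window stood at 44.6 and 34.1 in DEK KO, against 61.0 and 67.0 in WT control. ZBTB18 had one on each side. The region at 244080242 to 244081011 stood at 73.5 and 58.6 in DEK KO, against 85.5 and 83.7 in WT control, and that at 244011982 to 244012833 at 74.8 and 67.0 in DEK KO, against 90.7 and 86.8 in WT control. The flank of ZBTB2, a factor that represses p21, held one at 70.6 and 58.5 in DEK KO, against 88.4 and 83.4 in WT control.

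BTB zinc finger genes under other symbols had start regions in all 4 lists at 6 of 9 genes, against 60.4% of all protein-coding genes. Their windows held 83 regions, of which 1 was KO-only and 2 were WT-only, against 6.24% and 2.56% of all regions. BCL6, the repressor of germinal centre B cells, held both WT-only regions, and its start stood at percentiles 90.8 and 89.9 in DEK KO, against 83.0 and 88.9 in WT control. HIC1, a tumour suppressor, stood at 23.7 and 28.6 in DEK KO, against 37.9 and 38.0 in WT control. ZBTB33 stood at 88.9 and 90.4 in DEK KO, against 96.4 and 91.4 in WT control. The other 3 overlapped, so that 1 ranked higher and 2 lower, against 23.3% and 16.0% of all genes.

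Corepressor and ubiquitin ligase partners had start regions in all 4 lists at 24 of 30 genes, against 60.4% of all protein-coding genes. Of these 24, 4 ranked higher and 2 lower in both DEK KO lists, against 23.3% and 16.0% of all genes, with a median difference of 0.91, against 0.437. EZH2, the methyltransferase of Polycomb complexes, stood at percentiles 90.2 and 94.5 in DEK KO, against 80.0 and 76.4 in WT control. CTBP1, a corepressor, stood at 37.4 and 42.8 in DEK KO, against 19.4 and 24.4 in WT control. SIN3A and HDAC5 had differences of 6.70 and 4.67. MBD2, a reader of methylated DNA, stood at 78.8 and 84.0 in DEK KO, against 88.1 and 89.0 in WT control, and CUL3 had a difference of -1.52. The windows held 468 regions, of which 22 were KO-only and 11 WT-only, against 6.24% and 2.56% of all regions.

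Genes known as targets of these factors had start regions in all 4 lists at 9 of 15 genes, against 60.4% of all genes. Of these 9, 4 ranked higher and 2 lower in both DEK KO lists, against 23.3% and 16.0% of all genes. CDCA7, a target of ZBTB24, stood at percentiles 83.8 and 82.2 in DEK KO, against 71.1 and 75.9 in WT control. MTFP1, PKM and SLC2A3 had differences of 11.6, 11.8 and 18.6. PRDM1, a target of BCL6, stood at 81.1 and 79.2 in DEK KO, against 89.97 and 86.7 in WT control, and its window held 4 KO-only and 0 WT-only regions. CIITA had a difference of -7.85. The fetal globin genes HBG1 and HBG2, targets of ZBTB7A, had no start region in any list. In all, the windows held 148 regions, of which 8 were KO-only and 3 WT-only, against 6.24% and 2.56% of all regions.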

How the data were processed

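ATAC-seq peak lists of 2 DEK KO and 2 WT control libraries were used, 1 deposited list per library. Per the submitters' processing notes, the tools included MACS2 2.2.7.1, Bowtie2 2.2.5, cutadapt 1.18, Picard 2.26.9 and SAMtools 1.7, with the build GRCh38 (hg38). Their settings, and any shift of reads for the transposase, are not given in the sources used here. For each peak the authors deposited a score, a fold ratio of the peak over background, −log10 p and −log10 q values and a summit offset. The lowest deposited −log10 q was near 1.30 in each list, a q-value limit of 0.05.

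Peaks off chromosomes 1 to 22 and X were left out, from 135 to 167 per list. Peaks overlapping by at least 1 bp were merged across lists, and regions were classed by the set of lists calling them. Percentiles of column 8 (−log10 p) were taken within each list. Merging and classing were tested on simulated data. Python 3.11.15, numpy 2.4.6, pandas 2.3.3, scipy 1.17.1 and matplotlib 3.10.9 were used. Gene spans and starts came from RefSeq, GRCh38.p14, and all 41 members matched.

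The members, gene lists, motifs and sequences shown were chosen with earlier results of these data known. No test was run on calls or ranks, since they chose the members and 2 libraries against 2 allow no exact permutation p below 0.333. The genes named were members with a one-genotype region at the start or inside the gene, the 6 members with most such regions, the 6 per direction with the largest start difference where the genotypes do not overlap, the 4 highest and 4 lowest starts, members without a start region, the 6 highest one-genotype regions per direction, members with shared windows, and list genes with a one-genotype start region or the largest surplus. Other genes and regions were named after their values were seen. Alternatives were lists of equal length, a −log10 q minimum of 5, an overlap of 200 bp, spans with 10 kb or no flank, 500 bp around starts, ranking by fold, leaving out ZBTB8OS or chromosome 1, and leaving out each library.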

Additional observations from a re-analysis of the deposited data

How the results depend on the processing

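No paired analysis was possible because the results come from no test, and no label ties the replicate numbers to a shared batch. Start regions called in all 4 lists numbered 32 at equal length, with −log10 q of at least 5 and with 200 bp of overlap, and 31 within 500 bp of starts. With 1 library left out they numbered 33, but there 3 lists sufficed. Changes of flank and ranking by fold cannot alter this count. Leaving out ZBTB8OS or chromosome 1 removes members, and left 32 and 25. The share of window regions called in all 4 lists was 61.85% with −log10 q of at least 5, and 53.38% to 58.23% with 1 library left out, where 3 lists sufficed. KO-only and WT-only regions numbered 7 and 7 with 10 kb of flank and 5 and 7 in the gene spans alone, from smaller windows. With 1 library left out, KO-only counts ran from 27 to 66 and WT-only counts from 25 to 42. The median start difference of 1.63 was -0.1139 at equal list length and 0.1381 to 1.215 with 1 library left out. Ranked by fold, differences changed sign at ZBTB20 (1.119), ZBTB37 (0.203), ZBTB48 (1.601) and ZBTB41 (2.71), where the same start region was taken, and the cause was not tested. At ZBTB38 that ranking took another start region (-19.72), which ranked lower in DEK KO by −log10 p too (-24.3). With the region kept, chosen after seeing the data, the value was -1.189. Of 179 recomputed differences at the 17 starts whose genotypes do not overlap, 138 moved by less than 2.12 points, 36 by more and 5 changed sign. This limit is the mean of the median replicate SDs over the 33 starts, 2.55 in DEK KO and 1.69 in WT control. The 138 include values from leaving out ZBTB8OS or chromosome 1, which cannot change the difference of another gene. They also include values at 200 bp of overlap and at 500 bp around starts, which equalled those reported. ZBTB1 and ZBTB25 share a region and count separately, so the 138 are no measure of stability. Depth is unknown, so a region missing from a list was not called there, which does not show that it was closed.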
